A study of Mus musculus with 12 samples.

Results

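The receptors for extracellular nucleotides and adenosine were followed as 10 genes, namely the ATP-gated channels P2rx4 and P2rx7, the nucleotide receptors P2ry2, P2ry6, P2ry12, P2ry13 and P2ry14, and the adenosine receptors Adora2a, Adora2b and Adora3, which were taken by symbol from a table of 38739 gene symbols. All 10 were listed, and all 10 were among the 11887 genes that passed the filter on low values (at least 1 TPM, after rescaling every sample to the same total, in at least 3 of the 12 samples). RNA sequencing was performed on mouse bone marrow-derived macrophages (BMDMs), which are cells grown from marrow precursors, from wild-type (WT) and cGAS-/- mice, with 3 samples in each of 4 groups: WT untreated (UT, media control), WT with LPS, cGAS-/- UT and cGAS-/- with LPS. The cells came from 8-week-old male C57BL/6J mice according to the methods of the study, the knockout removed the cytosolic DNA sensor cGAS from every cell of the animal, and LPS, a membrane component of Gram-negative bacteria, was given at 100 ng/mL for 1 h per the labels. The methods instead name a higher dose and 24 h, so the length of stimulation is uncertain. The triplicates were called technical by the study, and the p-values below therefore measure the spread between these samples, which may not include the spread between animals.

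Cells that are stressed or dying release ATP and other nucleotides, which act on P2X channels and P2Y G protein-coupled receptors, while enzymes at the cell surface cut ATP down to adenosine, which acts on its own receptors. In macrophages, P2RX7 is known for opening an ion channel at high ATP and driving NLRP3 inflammasome assembly and IL-1 release. The adenosine receptors encoded by Adora2a and Adora2b raise cyclic AMP and are known for damping the release of inflammatory cytokines.

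The unit of the table is not stated, and its values were read as TPM averaged over the transcripts of a symbol. TPM is a share of all transcripts in a sample, scaled to transcript length. After such averaging the values no longer add up to a common total. They keep no read depth, so counting intervals could not be given. Column totals lay between 447189 and 503156 in 11 samples but reached 709802 in WT LPS replicate 3, where the ferritin pseudogene Fth-ps3 took 31.7% of the total against 6.24% to 17.7% elsewhere and 6380 genes were at 1 TPM or more against 7809 to 9204. That library stood apart from the other WT LPS samples, and values without it are given beside most of the receptor calls and list counts. Cgas itself was listed at 1.19 to 3.25 TPM in the 6 WT samples and at 0.0703 to 0.291 TPM in the 6 cGAS-/- samples, with no overlap. The macrophage markers were all listed (12 of 12), with a summed level of 19911 to 35442 TPM, while 1 field of the labels names neutrophils as the source of the RNA and the 9 neutrophil markers summed to 85.7 to 403 TPM. Lyz2 alone was at 15701 to 33426 TPM, so this sum and the macrophage sums below mostly follow that gene. The next highest macrophage marker, C1qa, reached 1921 TPM, and Cx3cr1 ranged from 0.157 to 18.4 TPM. These sums do not settle which cells the RNA came from. In bulk RNA, fewer cells of a type and less RNA per cell cannot be told apart.

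The promoters of 3 receptors described below are shown, as RefSeq windows of 200 bases ending 51 bases before the transcript start (GRCm38.p6, so that these positions differ from the GRCm39 gene positions given later). Of these 3, P2ry14 passed the test in no comparison of the main fit. 8 of the 10 receptors had an entry, with 13 promoters between them, and Adora2a and P2ry6 had none. Capitals mark an AP-1 site (TGANTCA), the binding sequence of the Fos and Jun factors. Adora2b lies at chr11:62248734-62248933 on the plus strand, P2rx7 at chr5:122643677-122643876 on the plus strand (the first of its 2 promoters) and P2ry14 at chr3:59153543-59153742 on the minus strand (the first of its 4).
Adora2b: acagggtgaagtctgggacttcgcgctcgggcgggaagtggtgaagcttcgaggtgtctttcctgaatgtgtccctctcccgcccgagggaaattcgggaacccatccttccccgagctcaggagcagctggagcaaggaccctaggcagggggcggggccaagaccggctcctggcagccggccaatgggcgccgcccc
P2rx7: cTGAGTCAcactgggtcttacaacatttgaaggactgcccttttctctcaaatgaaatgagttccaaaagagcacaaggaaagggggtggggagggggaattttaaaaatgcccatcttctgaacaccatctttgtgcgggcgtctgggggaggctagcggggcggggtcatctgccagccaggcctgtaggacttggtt
P2ry14: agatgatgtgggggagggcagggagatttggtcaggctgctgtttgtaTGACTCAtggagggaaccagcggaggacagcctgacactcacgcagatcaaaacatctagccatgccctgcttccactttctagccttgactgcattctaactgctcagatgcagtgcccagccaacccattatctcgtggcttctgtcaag
Both strands were searched for this site, for the kappaB consensus, for the ISRE core (GAAA, then any 2 bases, then GAAA) and for the CRE half-site (TGACG), and no match overlapped another. Neither the kappaB consensus nor the ISRE core was found in any of the 13 windows. The AP-1 site stood 249 bases before the P2rx7 start (TGAGTCA), 202 bases before the P2ry14 start (TGACTCA), 144 bases before the start of another P2ry14 promoter (TGAATCA) and 98 bases before the Adora3 start (TGACTCA), and the CRE half-site stood 178 and 57 bases before the P2rx4 start. Of 32851 promoters of the same length, 5.57% held the AP-1 site, 12.7% the CRE half-site, 5.71% the kappaB consensus and 2.4% the ISRE core. These are matches of letters and do not show binding.

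In UT cells of both genotypes, P2ry6 and P2rx4 were the receptors at the highest level and Adora2a was the lowest. In WT UT samples the mean level was 80.1 ± 3.68 TPM (SD, n = 3) for P2ry6, 40.5 ± 2.44 TPM for P2rx4, 8.06 ± 0.57 TPM for P2rx7 and 4.58 ± 0.64 TPM for Adora2b, and the samples of these 4 genes did not overlap those of their neighbours in the order. P2ry2 (2.06 ± 0.068 TPM), P2ry14 (1.96 ± 0.24 TPM) and P2ry13 (1.36 ± 0.55 TPM) overlapped from one to the next, and so did P2ry12 (0.54 ± 0.045 TPM), Adora3 (0.50 ± 0.15 TPM) and Adora2a (0.25 ± 0.33 TPM). In cGAS-/- LPS samples Adora2b (14.4 ± 1.82 TPM) and Adora2a (5.09 ± 0.30 TPM) stood next to each other in the order, behind P2ry6 (44.2 ± 0.093 TPM) and P2rx4 (43.6 ± 1.73 TPM), which overlapped. The values behave as a mean over the transcripts listed under a symbol, so a gene with many annotated transcripts may be listed lower than the sum over its transcripts, and the order between genes depends on this.

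**Figure D1:**
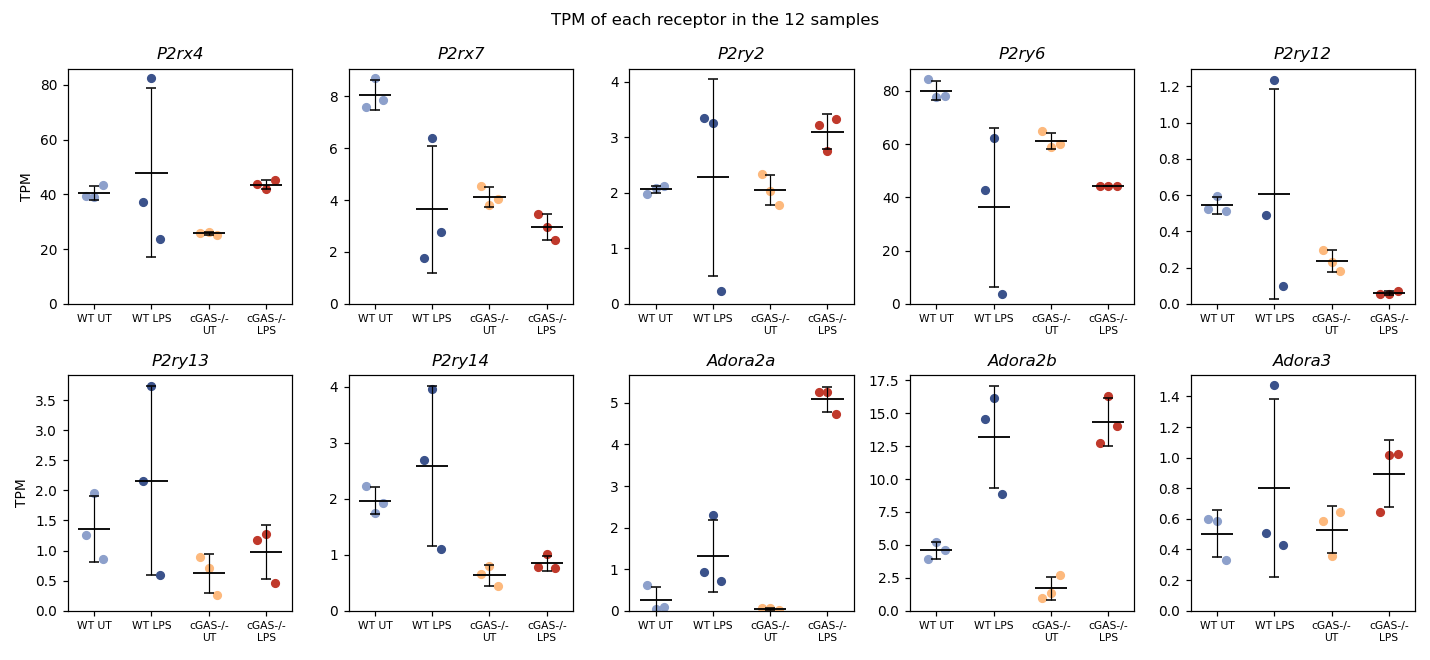
TPM of each of the 10 receptors (y axis, linear, one scale per gene) in the 4 groups (x axis). Points are the 3 samples of a group, the long bar is their mean and the whiskers are 1 SD; Adora2a and Adora2b were higher in both LPS groups than in the UT group of the same genotype with no overlap, and the WT LPS samples spread widely for most receptors.

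The first channel, P2rx4 (chr5:122845541-122867803, plus strand, GRCm39), encodes an ATP-gated channel that is found on lysosomes as well as at the cell surface. Its level was 39.2, 38.9 and 43.3 TPM in WT UT, 37.2, 82.6 and 23.8 TPM in WT LPS, 25.9, 26.2 and 25.0 TPM in cGAS-/- UT, and 43.7, 41.8 and 45.2 TPM in cGAS-/- LPS samples. The cGAS-/- UT samples were the lowest of the UT samples without overlap, while the WT LPS samples reached from below to far above all the others. Its log2 fold change was -0.63 (SE 0.36) between cGAS-/- and WT UT samples and 0.74 (SE 0.36) between cGAS-/- LPS and UT samples, and neither passed the test (limma, adjusted p = 0.890 and 0.241). The LPS value in cGAS-/- cells stayed at 0.74 but was called without WT LPS replicate 3 (adjusted p = 0.0335) or replicate 2 (adjusted p = 0.0170), which enter it only through the shared estimate of the spread, and under median-ratio scaling it was 1.02 (adjusted p = 0.00181).

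P2rx7 (chr5:122781942-122830400, plus strand, GRCm39), the neighbouring gene and the ATP channel linked to the inflammasome, was listed at 7.60, 8.70 and 7.87 TPM in WT UT, 1.76, 6.39 and 2.77 TPM in WT LPS, 4.55, 3.80 and 4.04 TPM in cGAS-/- UT, and 3.45, 2.95 and 2.46 TPM in cGAS-/- LPS samples. All 3 WT UT samples lay above the other 9 samples. Within WT cells P2rx7 was lower with LPS, by a log2 fold change of -1.09 (SE 0.31, limma adjusted p = 0.0243), or -0.63 relative to the median of all tested genes, and by -1.002 (adjusted p = 0.0389) without WT LPS replicate 3. The call ended in 8 of 24 alternative settings, which were median-ratio scaling (log2 fold change -0.43, adjusted p = 0.304) quantile normalization (-0.58, adjusted p = 0.127), the fit on the 6 WT samples alone (adjusted p = 0.182), the fit without WT LPS replicate 3 with median-ratio scaling (-0.67, adjusted p = 0.0797), leaving out any one WT UT sample (adjusted p = 0.0613, 0.0787 and 0.0648 without replicates 1, 2 and 3) and leaving out WT LPS replicate 1 (-0.78, adjusted p = 0.0573).

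Among the P2Y receptors, P2ry6 (chr7:100585308-100624173, minus strand, GRCm39), which responds to UDP, had the highest level. It was listed at 84.4, 77.9 and 78.1 TPM in WT UT, 42.9, 62.3 and 3.74 TPM in WT LPS, 64.8, 58.9 and 60.2 TPM in cGAS-/- UT, and 44.2, 44.3 and 44.2 TPM in cGAS-/- LPS samples. Every LPS sample lay below every UT sample of WT cells, and the same held in cGAS-/- cells, but WT LPS replicate 3 alone was more than 10 times below the others. The log2 fold change with LPS in WT cells was -1.78 (SE 0.73, limma adjusted p = 0.0886), and -0.62 (adjusted p = 0.00778) without WT LPS replicate 3 and -2.49 (adjusted p = 0.0158) without WT LPS replicate 2. In cGAS-/- cells it was -0.46 (SE 0.73, adjusted p = 0.777), with the spread taken from all 12 samples, and -0.46 (adjusted p = 0.0199) without WT LPS replicate 3.

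P2ry2 (chr7:100640649-100663957, minus strand, GRCm39), a receptor for ATP and UTP, was listed at 1.99, 2.08 and 2.12 TPM in WT UT, 3.35, 3.25 and 0.237 TPM in WT LPS, 2.33, 2.04 and 1.79 TPM in cGAS-/- UT, and 3.22, 2.75 and 3.33 TPM in cGAS-/- LPS samples. The LPS samples were the higher ones in both genotypes except for WT LPS replicate 3, which was the lowest of all 12. The log2 fold change with LPS in WT cells was -0.11 (SE 0.39, limma adjusted p = 0.847), which turned to 0.49 (adjusted p = 0.0132) without that library, and the direction also turned under median-ratio scaling (0.27) and quantile normalization (0.38).

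The 3 genes P2ry12, P2ry13 and P2ry14 lie together on chromosome 3 (GRCm39, minus strand, at chr3:59123682-59170429, chr3:59114539-59118304 and chr3:59021276-59061134) inside Med12l, which runs on the opposite strand. Exons of P2ry12 share 294 bases with Med12l exons (9.17% of its exon bases), and exons of the other two share none. The library kit marks strand, and whether the quantification used it is not given in the sources used here. P2ry14, a receptor for UDP-sugars, was listed at 2.22, 1.74 and 1.92 TPM in WT UT, 2.69, 3.97 and 1.10 TPM in WT LPS, 0.659, 0.803 and 0.435 TPM in cGAS-/- UT, and 0.774, 1.01 and 0.763 TPM in cGAS-/- LPS samples. Every cGAS-/- sample lay below every WT sample of either treatment. The log2 fold change between cGAS-/- and WT was -0.86 (SE 0.27) in UT and -0.87 (SE 0.27) in LPS samples, and neither passed the test over all genes (limma, adjusted p = 0.222 and 0.134). Both were called under median-ratio scaling (UT -0.77, adjusted p = 0.0303, and LPS -1.20, adjusted p = 0.00182) and without WT LPS replicate 3 (UT -0.86, adjusted p = 0.00848, and LPS -1.22, adjusted p = 0.00217).

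P2ry12 and P2ry13, the ADP receptors that microglia and platelets are known for in the first case and myeloid cells in the second, were near the lower end. P2ry12 ranged from 0.512 to 0.594 TPM in WT UT, 0.0963 to 1.24 TPM in WT LPS, 0.182 to 0.299 TPM in cGAS-/- UT and 0.0540 to 0.0714 TPM in cGAS-/- LPS samples, and at each treatment its cGAS-/- values were all below its WT values. Its log2 fold change in LPS samples was -0.54 (SE 0.22, limma adjusted p = 0.223), and -0.78 (adjusted p = 0.0222) without WT LPS replicate 3. P2ry13 ranged from 0.265 to 3.74 TPM over the 12 samples, its groups overlapped in each comparison and no comparison was called.

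**Figure D2:**
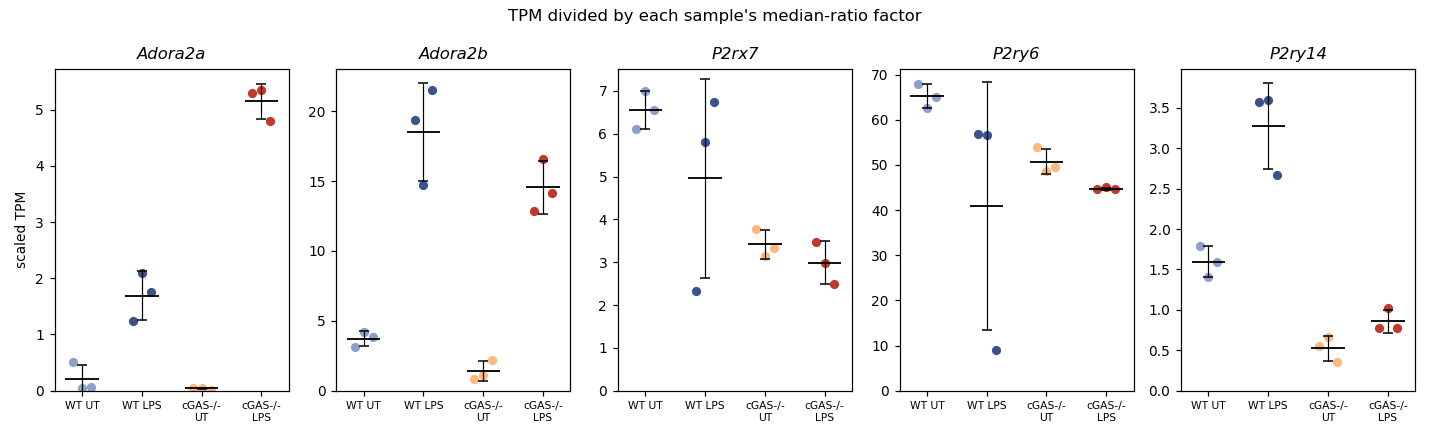
TPM of Adora2a, Adora2b, P2rx7, P2ry6 and P2ry14 divided by the median-ratio factor of each sample (y axis, linear, one scale per gene) in the 4 groups (x axis). Points are the 3 samples, long bars their mean and whiskers 1 SD; after scaling, P2ry14 was at 2.66 to 3.60 in WT LPS and 0.77 to 1.02 in cGAS-/- LPS samples, P2rx7 overlapped between WT LPS and WT UT samples, and WT LPS replicate 3 stayed low for P2ry6 at 9.09.

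Of the adenosine receptors, Adora2a (chr10:75152560-75170628, plus strand, GRCm39) was close to 0 in UT cells and was listed at 0.627, 0.0518 and 0.0773 TPM in WT UT, 0.928, 2.30 and 0.724 TPM in WT LPS, 0.0623, 0.0569 and 0.0257 TPM in cGAS-/- UT, and 5.25, 5.27 and 4.74 TPM in cGAS-/- LPS samples. The 3 cGAS-/- LPS samples were the highest of the 12, the WT LPS samples came next, and the groups with LPS did not overlap those without. In cGAS-/- cells Adora2a rose with LPS by a log2 fold change of 2.54 (SE 0.25, limma adjusted p = 5.58e-05), which was 2.74 relative to the median of all tested genes, and the call was kept in 24 of 24 alternative settings. In WT cells it rose by 0.86 (SE 0.25, adjusted p = 0.0280), or 1.32 relative to that median, and by 1.04 (adjusted p = 0.00967) without WT LPS replicate 3, but the call ended in 6 of 24 settings, which were leaving out WT UT replicate 2 (0.75, adjusted p = 0.103) or WT UT replicate 3 (0.76, adjusted p = 0.0956), rescaling to a common total (0.78, adjusted p = 0.0537), no filter (adjusted p = 0.0684), sample weights (0.91, adjusted p = 0.0960) and the fit on the 6 WT samples alone (adjusted p = 0.160).

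With LPS, Adora2a was also higher in cGAS-/- than in WT cells, by a log2 fold change of 1.45 (SE 0.25, limma adjusted p = 0.0135), or 1.25 relative to the median of all tested genes. The value lay between 1.27 and 1.74 when any one sample was left out, and the call was kept without WT LPS replicate 3 (1.27, adjusted p = 0.0122), but the adjusted p became 0.0691, 0.0649 and 0.0531 without cGAS-/- LPS replicates 1, 2 and 3. It was also lost with a pseudocount of 0.1 (2.03, adjusted p = 0.142), with sample weights (1.44, adjusted p = 0.0589) and in the fit on the 6 LPS samples alone (adjusted p = 0.337), which makes 6 of 24 settings. The LPS effect in cGAS-/- minus that in WT cells was 1.68 (SE 0.35, 95% interval 0.90 to 2.46, adjusted p = 0.0572), and 1.50 (adjusted p = 0.0343) without WT LPS replicate 3. Because these fold changes are on the scale of log2(TPM + 1), they understate the change of a gene that starts this low.

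Adora2b (chr11:62139804-62157279, plus strand, GRCm39), the adenosine receptor of lower affinity, was listed at 3.91, 5.18 and 4.63 TPM in WT UT, 14.6, 16.2 and 8.84 TPM in WT LPS, 0.999, 1.38 and 2.70 TPM in cGAS-/- UT, and 12.7, 16.3 and 14.01 TPM in cGAS-/- LPS samples. Both LPS groups lay above both UT groups, the LPS groups overlapped each other, and the cGAS-/- UT samples were the lowest. Adora2b rose with LPS by a log2 fold change of 1.31 (SE 0.29, limma adjusted p = 0.00705) in WT cells and 2.56 (SE 0.29, adjusted p = 0.000125) in cGAS-/- cells, or 1.78 and 2.76 relative to the median of all tested genes. The WT value was 1.56 (adjusted p = 0.000791) without WT LPS replicate 3. The call held in 24 of 24 settings in cGAS-/- cells and in 23 of 24 in WT cells, the exception being the fit on the 6 WT samples alone (adjusted p = 0.0863). The difference between the 2 LPS effects was 1.24 (SE 0.40, 95% interval 0.35 to 2.13) and did not pass the test (adjusted p = 0.259). In UT samples the log2 fold change between cGAS-/- and WT was -1.09 (SE 0.29, adjusted p = 0.104), and the same value had an adjusted p = 0.0150 without WT LPS replicate 3.

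Adora3 (chr3:105778174-105816242, plus strand, GRCm39), a receptor that lowers cyclic AMP and is best known in mast cells, ranged from 0.329 to 1.47 TPM over the 12 samples and was called in no comparison. The 4 mast cell markers listed summed to 0.226 to 1.68 TPM. Its transcripts share 28.2% of their bases with other genes, mostly with Gm53046 (21.5%), so its level is uncertain.

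**Figure D3:**
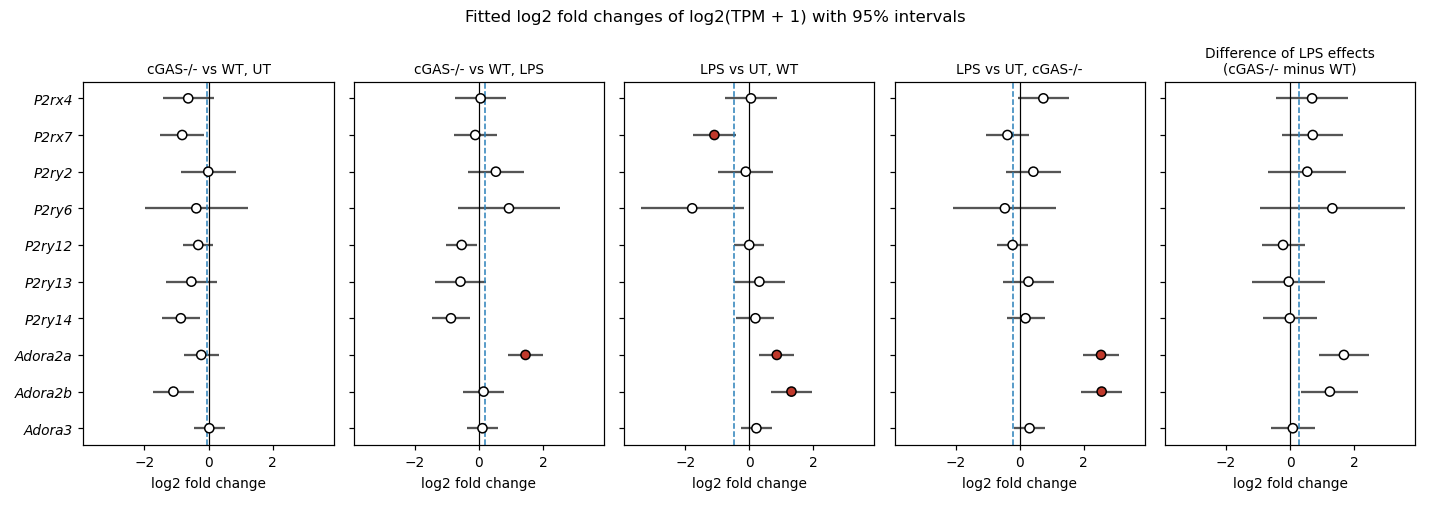
Fitted log2 fold changes of log2(TPM + 1) (x axis) of the 10 receptors (y axis) in the 4 comparisons and in the difference of the LPS effects (cGAS-/- minus WT), with 95% intervals. Filled points passed an adjusted p of 0.05, the dashed line is the median of all 11887 genes tested; the filled points are Adora2a with LPS in cGAS-/- against WT (1.45), P2rx7 (-1.09), Adora2a (0.86) and Adora2b (1.31) with LPS in WT, and Adora2a (2.54) and Adora2b (2.56) with LPS in cGAS-/- cells.

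Counted over the receptors, none of the 10 passed an adjusted p of 0.05 in limma between cGAS-/- and WT cells in UT samples, against 1.83% of all genes tested, and 3 (P2rx7, P2ry14 and Adora2b, all lower) had an unadjusted p under 0.05, as did 8.08% of all genes tested. At the same time 6 of the 10 (P2rx4, P2rx7, P2ry6, P2ry12, P2ry14 and Adora2b) were lower in every cGAS-/- UT than in every WT UT sample, against 18.4% of all genes tested, and none was higher in that way, against 12.1%. The same 6 did not overlap after median-ratio scaling and none was higher, against 16.9% of all genes lower and 13.6% higher in that way. The median log2 fold change was -0.46 over the receptors and -0.04 over all genes tested. Without WT LPS replicate 3, which enters this comparison only through the shared estimate of the spread, 2 receptors were called (P2ry14 and Adora2b), and without WT LPS replicate 2 it was 1 (P2rx7), while the number of all genes called went from 218 to 633 (5.33%) and 341 (2.87%). Sums of marker genes of other cell types differed between these groups too. B cell markers summed (6 of 6 listed, none at 0 in every sample of a group) to 37.3 to 45.6 TPM in WT UT and 16.6 to 21.7 TPM in cGAS-/- UT samples. The sums of the neutrophil (172 to 242 against 85.7 to 157 TPM), megakaryocyte and platelet (85.2 to 100.4 against 57.6 to 58.9 TPM), dendritic cell (8.38 to 8.84 against 5.30 to 7.04 TPM) and fibroblast markers (6.93 to 9.19 against 2.01 to 3.74 TPM) were also lower in the cGAS-/- UT samples without overlap. Those of the microglia (3.30 to 3.67 against 6.65 to 7.57 TPM) and macrophage markers (20212 to 21058 against 22554 to 24643 TPM) were higher. The part of these markers in the receptor differences was not tested.

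With LPS, 1 of the 10 receptors (Adora2a) was called higher in cGAS-/- than in WT cells, against 1.36% of all genes tested (2.36% in either direction), and none lower. Adora2a alone was higher without overlap (12.6% of all genes tested), and P2ry12 and P2ry14 were lower without overlap (5.17%). After median-ratio scaling Adora2a was again the 1 that was higher (10.8% of all genes), and 4 were lower (P2rx4, P2ry12, P2ry13 and P2ry14, against 10.1%). Leaving out WT LPS replicate 3 gave 3 calls, adding P2ry12 and P2ry14, while 8.28% of all genes were called, and leaving out any one cGAS-/- LPS sample gave 0, with 0.648% to 0.799% of all genes called. The median log2 fold change was 0.08 over the receptors and 0.20 over all genes tested. Marker sums that did not overlap here were those of B cells (3.45 to 8.84 TPM in WT LPS and 1.25 to 2.17 TPM in cGAS-/- LPS samples), fibroblasts (5.65 to 16.6 and 2.60 to 3.68 TPM) and macrophages (19911 to 27765 and 35094 to 35442 TPM), and their part was not tested.

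The LPS effect in WT cells was called for 2 receptors that were higher (Adora2a and Adora2b), against 4.31% of all genes tested, and for 1 that was lower (P2rx7), against 23.3% (27.6% in either direction). Without overlap the counts were 2 higher (5.31%) and 2 lower (P2rx7 and P2ry6, 32.9%). After median-ratio scaling they were 5 higher (P2rx4, P2ry14, Adora2a, Adora2b and Adora3, against 13.5% of all genes) and 1 lower (P2ry6, against 18.3%). The median log2 fold change was 0.12 over the receptors and -0.46 over all genes tested, and median-ratio scaling brought the latter to -0.02. Without WT LPS replicate 3, 6 receptors were called, which were the 3 above with P2ry2 and P2ry14 higher and P2ry6 lower, while 8.26% of all genes were called higher and 26.5% lower, and without WT UT replicate 2 or 3 only Adora2b was. The marker sums that did not overlap were all lower with LPS, namely those of B cells (37.3 to 45.6 and then 3.45 to 8.84 TPM), dendritic cells (8.38 to 8.84 and then 0.361 to 2.08 TPM), microglia (3.30 to 3.67 and then 0.748 to 2.70 TPM) and T and NK cells (0.638 to 0.934 and then 0.146 to 0.605 TPM), and their part was not tested.

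The LPS effect in cGAS-/- cells was called for 2 receptors, Adora2a and Adora2b, both higher, against 4.76% of all genes tested (13.8% in either direction), and both were also beyond a log2 fold change of 2, as were 3.5% of all genes in either direction. A further 2 (P2rx4 and P2ry2) were higher without overlap, giving 4 (15.5% of all genes tested), and 3 (P2rx7, P2ry6 and P2ry12) were lower without overlap (40.2%). After median-ratio scaling 6 were higher (these 4 with P2ry14 and Adora3, against 24.8%) and 2 lower (P2ry6 and P2ry12, against 25.6%), and P2rx7 overlapped. The median log2 fold change was 0.29 over the receptors and -0.20 over all genes tested, and without WT LPS replicate 3 there were 5 calls, with P2rx4 and P2ry2 higher and P2ry6 lower, while 9.19% of all genes were called higher and 21.6% lower. In these cells the marker sums of B cells (16.6 to 21.7 and then 1.25 to 2.17 TPM), dendritic cells (5.30 to 7.04 and then 1.74 to 2.36 TPM) and microglia (6.65 to 7.57 and then 1.91 to 2.45 TPM) were lower with LPS without overlap, and those of megakaryocytes and platelets (57.6 to 58.9 and then 88.6 to 105 TPM) and macrophages (22554 to 24643 and then 35094 to 35442 TPM) were higher, and their part was not tested either. The difference of the LPS effects between genotypes was called for none of the 10 in limma, against 0.9% of all genes tested, with 2 (Adora2a and Adora2b) at an unadjusted p under 0.05, as had 11.1% of all genes, and leaving out WT LPS replicate 2 gave 4 calls (P2rx4, P2rx7, Adora2a and Adora2b), with 12.6% of all genes called, and WT LPS replicate 3 gave 1 (Adora2a), with 4.56%. The comparisons of LPS and of genotype share their samples, so their calls are not independent of each other.

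**Figure D4:**
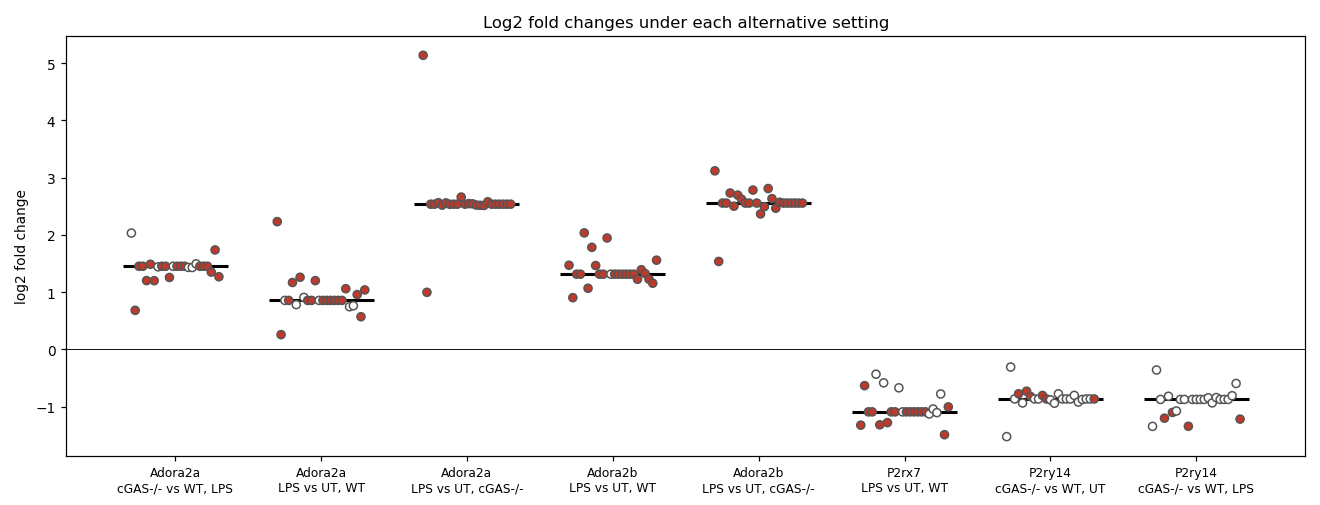
Log2 fold changes (y axis) of the receptor comparisons named on the x axis under each alternative setting. Each point is 1 setting, filled where the adjusted p was under 0.05, and the line is the value reported; the LPS effects of Adora2a and Adora2b in cGAS-/- cells stayed filled in all 24 settings each, while P2rx7 in WT cells stayed filled in 16 of 24.

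The other genes around these receptors were taken as 6 lists, of which 39 genes were tested. Between the genotypes, Adcy3 was the only gene of these lists that was called in UT samples, and Gja1, Il1a, Il1b and Prkar2b were the only ones with LPS (1.83% and 2.36% of all genes tested in either direction). Of the 39 genes, 22 were called with LPS in WT cells and 14 in cGAS-/- cells, against 27.6% and 13.8% of all genes tested. Of the 22, 21 were called in the same direction without WT LPS replicate 3, the exception being Slc29a3, while 3 (Gnas, Prkaca and Kcnk6) changed by more than 1.5 times in their log2 fold change. All 14 called with LPS in cGAS-/- cells, and all 5 called between the genotypes, were called without it as well, but further genes were called too, so that the totals became 26 with LPS in WT cells, 27 with LPS in cGAS-/- cells, 3 between UT samples and 11 between LPS samples, while 34.7%, 30.8%, 5.33% and 8.28% of all genes tested were called. Leaving out WT LPS replicate 2 instead, these totals were 30, 18, 4 and 22, beside 48.7%, 20.4%, 2.87% and 27.9% of all genes. Calls were also lost, since the 1 between UT samples ended without cGAS-/- UT replicate 1 or WT UT replicate 2, and of the 4 between LPS samples only Il1a remained without cGAS-/- LPS replicate 1, Gja1, Il1a and Il1b without replicate 2, and Il1a and Il1b without replicate 3. The 7 further genes called between LPS samples without replicate 3 were Nlrp3 (0.80) and Lrrc8d (0.69), which were higher in cGAS-/- cells, and Slc28a2 (-1.21), Pycard (-1.09), Nt5c3 (-1.06), Casp1 (-0.57) and Enpp1 (-0.54), which were lower, with limma adjusted p between 0.00554 and 0.0358. Pycard had a value of 0.10 with that library, so its direction turned. Which genes of these lists were called between genotypes with LPS therefore depended on WT LPS replicates 2 and 3 and on each cGAS-/- LPS sample. Of 9 further receptors for nucleotides and adenosine, 6 were listed and 1 was tested. This was P2ry1, an ADP receptor, which fell with LPS from 2.99, 2.38 and 2.35 TPM to 0.0757, 0.137 and 0.0457 TPM in WT cells (log2 fold change -1.72, SE 0.15, limma adjusted p = 2.21e-05) and from 3.22, 3.49 and 3.68 TPM to 0.0285, 0.212 and 0.148 TPM in cGAS-/- cells (-1.98, SE 0.15, adjusted p = 8.60e-06). The groups were far apart in both genotypes, and the WT value was -1.69 when WT LPS replicate 3 was left out. The other 5 listed (P2rx1, P2rx2, P2rx3, P2rx5 and Adora1) reached at most 0.154 TPM in any sample.

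For the enzymes that break down extracellular nucleotides, 3 of 11 were tested, with a median log2 fold change with LPS of -0.56 in WT and -0.62 in cGAS-/- cells, against -0.46 and -0.20 over all genes tested. Cd38, which cuts NAD, rose with LPS from 1.38, 1.77 and 1.35 TPM to 54.0, 88.5 and 13.4 TPM in WT cells (log2 fold change 4.05, SE 0.51, limma adjusted p = 0.000250; 4.81 when WT LPS replicate 3 was left out) and from 0.504, 0.648 and 0.777 TPM to 90.3, 86.9 and 83.9 TPM in cGAS-/- cells (5.75, SE 0.51, adjusted p = 2.43e-05). Enpp1, which cuts ATP, fell in WT (-0.95, adjusted p = 0.000838, and -0.91 when WT LPS replicate 3 was left out) and in cGAS-/- cells (-1.53, adjusted p = 3.65e-05). Nt5e (CD73), the enzyme known for making adenosine from AMP, did not pass the filter and reached at most 0.189 TPM.

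Of the genes for adenosine uptake and metabolism, 8 of 14 were tested, with medians of -0.74 and -0.22 in the same order. With LPS in WT cells 2 rose and 2 fell, against 4.31% and 23.3% of all genes tested, namely the concentrative nucleoside transporter gene Slc28a2 (2.70, SE 0.33, limma adjusted p = 0.000216), the nucleotidase gene Nt5c3 (1.42, SE 0.42, adjusted p = 0.0297), the adenosine deaminase gene Ada (-1.02, SE 0.18, adjusted p = 0.00215) and the lysosomal nucleoside transporter gene Slc29a3 (-0.93, SE 0.30, adjusted p = 0.0394, and -0.64, adjusted p = 0.0531, without WT LPS replicate 3). Slc29a3 was called in 6 of 24 alternative settings and Nt5c3 in 16. In cGAS-/- cells Slc28a2 was the one called (1.98, SE 0.33, limma adjusted p = 0.00200), while 4.76% of all genes tested were called higher and 9.06% lower. Nt5c3 (1.12, adjusted p = 0.000421) and Aprt (-0.43, adjusted p = 0.0281) were also called there when WT LPS replicate 3 was left out. In that fit 9.19% of all genes were called higher and 21.6% lower. The WT values of Slc28a2 were 3.94, 3.28 and 3.38 TPM without and 22.4, 53.7 and 18.7 TPM with LPS, far apart although the LPS samples spread, and the fold change was 2.98 when WT LPS replicate 3 was left out.

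Among genes for nucleotide release, 7 of 11 were tested, with medians of -0.71 with LPS in WT and -0.18 in cGAS-/- cells. With LPS in WT cells 3 fell and none rose, against 23.3% and 4.31% of all genes tested, and in cGAS-/- cells 1 fell and 2 rose, against 9.06% and 4.76%. Panx1, which forms an ATP-permeable channel, fell with LPS in WT cells (-1.77, SE 0.41, limma adjusted p = 0.00986), as did the vesicular nucleotide transporter gene Slc17a9 (-1.42, SE 0.19, adjusted p = 0.000341) and the volume-regulated anion channel subunit gene Lrrc8b (-1.77, SE 0.30, adjusted p = 0.00167). Without WT LPS replicate 3 these values were -1.26, -1.34 and -1.43, and all 3 were called. Lrrc8c then passed the test in WT cells as well and rose (0.65, limma adjusted p = 0.00929). In that fit 8.26% of all genes rose with LPS in WT cells and 26.5% fell. In cGAS-/- cells Lrrc8b fell (-1.12, SE 0.30, adjusted p = 0.0296), and Lrrc8c (1.12, SE 0.29, adjusted p = 0.0229) and Gja1, which encodes the hemichannel protein connexin 43, rose (1.97, SE 0.24, adjusted p = 0.000255). When 1 sample was left out, 1 to 5 genes of this list were called in cGAS-/- cells, the 5 without WT LPS replicate 3, where Panx1 (-1.04) and Slc17a9 (-0.51) fell as well and 30.8% of all genes were called. Gja1 was listed at 4.23, 3.79 and 4.40 TPM in cGAS-/- LPS samples against 0.926, 1.46 and 0.240 TPM in WT LPS samples, with no overlap (1.51, SE 0.24, adjusted p = 0.00956).

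Of the genes linked to P2RX7 through the inflammasome and IL-1, 8 of 9 were tested, with medians of 0.05 and 0.28. With LPS, 3 rose and 3 fell in WT cells, against 4.31% and 23.3% of all genes tested, and 3 rose and none fell in cGAS-/- cells, against 4.76% and 9.06%. Leaving out WT LPS replicate 3 made the latter 4 that rose and 2 that fell, with Casp1 (0.86, limma adjusted p = 0.000143), Nek7 (-1.11, adjusted p = 0.000177) and Kcnk6 (-0.47, adjusted p = 0.0138) called too, while 9.19% of all genes rose and 21.6% fell in that fit. In WT cells Casp1 was then called higher too (1.35, limma adjusted p = 1.76e-05), while 8.26% of all genes rose and 26.5% fell. Il1b was listed at 6.21, 4.08 and 2.17 TPM in WT UT, 127, 156 and 45.4 TPM in WT LPS, 2.45, 4.68 and 8.24 TPM in cGAS-/- UT, and 915, 771 and 856 TPM in cGAS-/- LPS samples. The cGAS-/- LPS samples stood far above the WT LPS samples (log2 fold change 3.11, SE 0.50, limma adjusted p = 0.00907, and 2.57 when WT LPS replicate 3 was left out), and Il1a did so too (1.99, SE 0.28, adjusted p = 0.00508). For Il1b the study's own PCR went the other way, with a higher level in WT than in cGAS-/- BMDMs with LPS. The methods give 24 h of LPS for those cells. Why the measures differ was not tested. Nlrp3, which encodes the sensor of the inflammasome, rose with LPS in WT (1.41, SE 0.23, adjusted p = 0.00150) and cGAS-/- cells (1.38, SE 0.23, adjusted p = 0.00227), and Txnip (-2.01, SE 0.31, adjusted p = 0.000866) and Nek7 (-1.43, SE 0.35, adjusted p = 0.0121), whose products bind NLRP3, fell with LPS in WT cells. When WT LPS replicate 3 was left out, the WT values were 1.60 for Nlrp3, -1.74 for Txnip and -0.96 for Nek7, and the difference between LPS samples was 1.73 for Il1a.

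For the cyclic AMP pathway below the A2 receptors, 12 of 19 genes were tested. In WT cells 6 fell with LPS and none rose, against 23.3% and 4.31% of all genes tested, and 4 to 10 were called when 1 sample was left out, the 10 without WT LPS replicate 2, where 48.7% of all genes were called. Without WT LPS replicate 3, Pde4b was called too and rose in WT cells (1.30, limma adjusted p = 0.00110). Pde4a (-0.77, adjusted p = 0.00824) and Prkar1a (-0.62, adjusted p = 0.0319) then fell as well. Of all genes, 8.26% were called higher and 26.5% lower in that fit. Between the LPS samples of the genotypes 1 was called (2.36% of all genes tested), and 0 to 8 when 1 sample was left out, the 8 without WT LPS replicate 2, where 27.9% of all genes were called. The genes that fell in WT cells included the adenylyl cyclase genes Adcy7 (-1.72, SE 0.41, limma adjusted p = 0.0118) and Adcy3 (-1.66, SE 0.14, adjusted p = 1.61e-05) and the protein kinase A catalytic subunit genes Prkaca (-1.70, SE 0.52, adjusted p = 0.0325) and Prkacb (-1.56, SE 0.23, adjusted p = 0.000669), of which Prkaca was at -0.92 and Adcy7 at -1.19 without WT LPS replicate 3, with a list median of -1.09 against -0.46 over all genes tested (-0.50 and -0.20 in cGAS-/- cells). In cGAS-/- cells 3 fell (Pde3b at -1.36, Prkacb at -1.35 and Adcy3 at -0.91, with limma adjusted p = 0.000820, 0.00214 and 0.00115), and Pde4b, a cyclic AMP phosphodiesterase gene, rose (2.04, SE 0.35, adjusted p = 0.00235), against 9.06% of all genes tested that fell and 4.76% that rose, and 4 to 9 were called when 1 sample was left out, the 9 without WT LPS replicate 3, where the share of all genes was 30.8%. Adcy3 was lower in cGAS-/- than in WT UT cells (-0.83, SE 0.14, adjusted p = 0.0103). Prkar2b, a regulatory subunit gene of protein kinase A, was higher in cGAS-/- than in WT LPS samples (1.77, SE 0.31, limma adjusted p = 0.0140), and by 1.44 when WT LPS replicate 3 was left out.

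**Figure D5:**
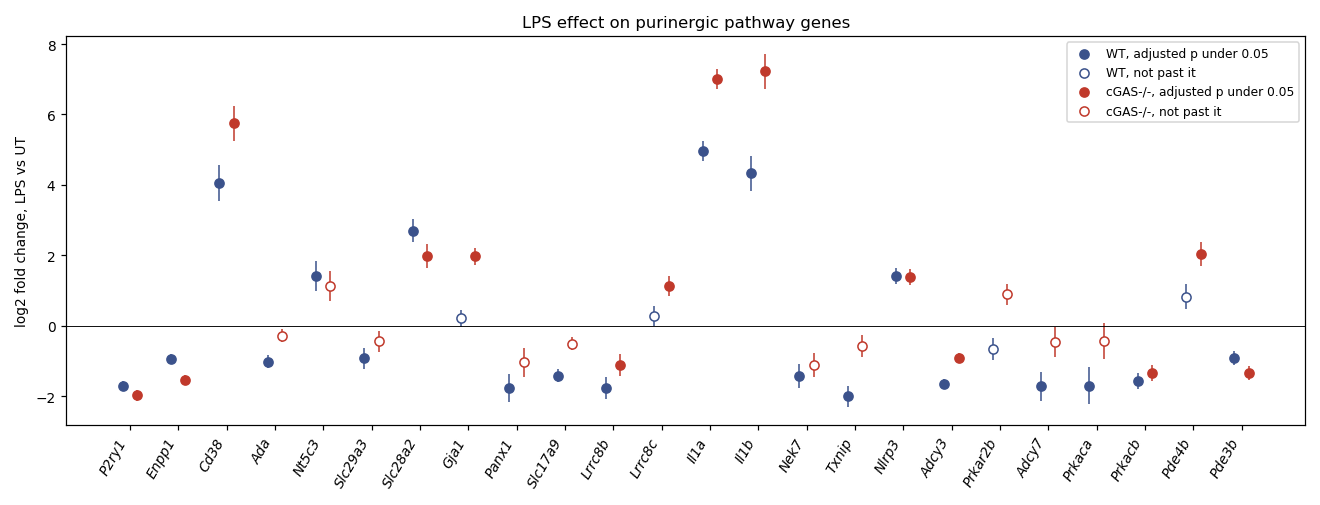
Log2 fold change with LPS (y axis, log2(TPM + 1) scale) of the pathway genes named in the text (x axis) in WT (blue) and cGAS-/- cells (red), with bars of 1 SE. Filled points passed an adjusted p of 0.05; Cd38, Il1a and Il1b were the highest in both genotypes, and P2ry1, Enpp1, Lrrc8b, Adcy3, Prkacb and Pde3b were filled below 0 in both.

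The genes whose log2(TPM + 1) followed each receptor most closely over the 12 samples were found as a description, since the points share treatment, genotype and the scaling of WT LPS replicate 3. For Adora2a they were Vnn3 (Pearson r = 0.99), Agpat3 (0.98) and Kmt5a (0.98), and for Adora2b Rilpl2 (0.98), Ikbke (0.97) and Ifi209 (0.96). For P2rx4 they were Pstpip1 (0.97), Glipr2 (0.97) and Jak3 (0.94), and for P2rx7 Hlx (0.96) and Dbf4 (0.95). P2ry6 was followed by Coasy, Scamp2 and Rit1 (0.99 or above), P2ry2 by Tmbim4 (0.99), Rab5c (0.98) and Znrf1 (0.98), and P2ry14 by Depp1 (0.96), Gm46123 (0.94) and Ighv1-26 (0.91). P2ry12 was followed by Pira2 (0.97), 9930111J21Rik2 (0.95) and Lgmn (0.94), P2ry13 by Mfsd4b3-ps (0.88), Pira13 (0.87) and Gm15931 (0.87), and Adora3 by Gm37233 (0.92), Nmt1 (0.89) and Ascc3 (0.89).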

How the data were processed

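The authors trimmed reads with fastp, mapped them with STAR to GRCm39 and quantified them with kallisto (versions not given in the sources used here), and they deposited 1 table of 12 columns, which the file calls normalized. Its unit is not stated; the deposited values were read as TPM averaged over the transcripts of a symbol, so read depth is unknown. All 12 columns were matched to labelled samples.

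The receptors, the gene lists and the tests were chosen with earlier results of these data known. Genes with at least 1 TPM in at least 3 samples, after rescaling each sample to a total of 1000000, were tested by limma 3.58.1 (R 4.3.3) on log2(TPM + 1), with 1 mean per group over all 12 samples, a variance trend and Benjamini-Hochberg adjustment over all genes tested. The threshold was an adjusted p of 0.05, alone and with a log2 fold change beyond 2. The script was tested on simulated data.

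The text names all 10 receptors, up to 4 called genes per pathway list and comparison by size of the change, and the 3 genes with the highest Pearson r to each receptor, of which 1 is not reported here. The lists were other P1 and P2 receptors, extracellular nucleotide hydrolysis, adenosine uptake and metabolism, nucleotide release, inflammasome and IL-1, and adenosine A2 signalling through cyclic AMP. Positions come from the GENCODE annotation of GRCm39, shared transcript sequence from blastn 2.17.0 and promoters from RefSeq (GRCm38.p6). Alternatives covered the pseudocount, filter, scaling, samples fitted, sample weights, replicate block, variance trend and leaving out each sample, and the fit without WT LPS replicate 3 with median-ratio scaling was added after seeing the data. No 2 columns were identical. Not analysed here were the proteins.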

Additional observations from a re-analysis of the deposited data

Results flagged for a closer look

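No receptor had a difference of LPS effects between the genotypes that passed the test, but 2 of the 39 genes tested in the surrounding lists did, against 0.9% of all genes tested. For Gja1 (connexin 43) the LPS effect was 0.21 in WT and 1.97 in cGAS-/- cells on the log2 scale, a difference of 1.76 (SE 0.34, limma adjusted p = 0.0438), with 0.240 to 1.46 TPM in WT LPS and 3.79 to 4.40 TPM in cGAS-/- LPS samples. For Il1a the LPS effect was 4.97 in WT and 7.02 in cGAS-/- cells, a difference of 2.05 (SE 0.40, limma adjusted p = 0.0438), with 41.4 to 84.9 TPM in WT LPS and 205 to 279 TPM in cGAS-/- LPS samples. In both genes WT LPS replicate 3 held the lowest WT LPS value, but without it 1 gene of the nucleotide release list and 2 of the inflammasome and IL-1 list were called for this difference, while 4.56% of all genes tested were called. Without any other single sample except WT LPS replicate 2, 0 genes of either list were called, with 0.353% to 0.993% of all genes called. Without WT LPS replicate 2 the numbers were 4 and 3, while 12.6% of all genes were called. With the replicate number as a block neither gene was called, and over 23 alternative settings Gja1 was called in 7 and Il1a in 9.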

How the results depend on the processing

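Over 1170 single receptor values under the alternatives, 1011 kept their direction and their side of the threshold, 62 passed it anew, 21 lost it and 76 turned direction. The number of receptors called (0, 1, 3 and 2 in the 4 comparisons, in the order cGAS-/- against WT in UT and LPS and LPS against UT in WT and cGAS-/-, and 0 for the difference of the LPS effects) changed by more than 1.5 times as follows. In UT it was 1 under median-ratio scaling, 2 under quantile normalization, 4 with sample weights and 5 in the 6 samples alone, and between LPS samples it was 0 with a pseudocount of 0.1, with sample weights and in the 6 samples alone, 2 under median-ratio scaling and 3 under quantile normalization. For LPS in WT it was 6 under quantile normalization and 0 in the 6 samples alone, for LPS in cGAS-/- it was 6 with sample weights and in the 6 samples alone, and for the difference of the LPS effects it was 1 with a pseudocount of 5, median-ratio scaling or quantile normalization. Without WT LPS replicate 3 and with median-ratio scaling, chosen after seeing the data, the counts were 4, 5, 6, 4 and 1, with 760, 1611, 3760, 3539 and 834 of all tested genes called. Leaving out 1 sample gave 0 to 2, 0 to 3, 1 to 6, 2 to 5 and 0 to 4 receptors. The cause of these changes was not tested.

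The number of all tested genes called (218, 281, 3286, 1643 and 107) was 92, 163, 2808, 1310 and 32 with a pseudocount of 0.1, 213, 513, 2330, 1641 and 153 under median-ratio scaling, 1369, 296, 2306, 5746 and 292 with sample weights, 108, 227, 2421, 1307 and 74 with a filter at 5 TPM, 235, 171, 2668, 1366 and 95 with no filter, and 316, 339, 3497, 1828 and 205 with a pseudocount of 5. It was 225, 552, 2445, 1799 and 151 under quantile normalization, 236, 203, 3873, 1553 and 101 with a common total, and 1241, 5, 716 and 5305 in the 6 samples alone.

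The values that turned direction were of comparisons not called here. Under median-ratio scaling they were, as log2 fold changes, P2ry2 0.0076 in UT, P2rx4 -0.43, Adora2b -0.32 and Adora3 -0.076 between LPS samples, P2ry2 0.27 and P2ry12 0.18 with LPS in WT, and Adora3 -0.11 for the difference of the LPS effects. With quantile normalization these were 0.068, -0.14, -0.096, -0.080, 0.38, 0.44 and -0.21 in the same order. A common total gave Adora3 -0.0024 in UT, P2rx4 -0.23 with LPS in WT, and P2ry13 0.046 and P2ry14 0.12 for the difference. Sample weights gave P2ry2 0.0047 in UT, P2rx4 -0.071, P2rx7 0.071 and Adora2b -0.027 between LPS samples, and P2ry2 0.38 and P2ry12 0.089 with LPS in WT. A pseudocount of 5 gave P2ry2 0.011 and P2ry12 0.012 with LPS in WT, and a pseudocount of 0.1 gave P2ry13 0.19 and P2ry14 0.18 for the difference. Without WT LPS replicate 3 and with median-ratio scaling they were P2ry2 0.0085 in UT, P2rx4 -0.45, P2ry2 -0.16, P2ry6 -0.33, Adora2b -0.20 and Adora3 -0.059 between LPS samples, P2ry2 0.81 and P2ry12 0.40 with LPS in WT, and P2ry2 -0.17 and Adora3 -0.090 for the difference.

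When 1 sample was left out, direction turned within these ranges. In UT they were -0.063 to 0.11 for Adora3 and -0.073 to 0.055 for P2ry2. Between LPS samples they were -0.097 to 0.30 for Adora2b, -0.033 to 0.36 for Adora3, -0.34 to 0.53 for P2rx4, -0.43 to 0.28 for P2rx7, -0.070 to 0.84 for P2ry2 and -0.22 to 1.65 for P2ry6. With LPS in WT they were -0.030 to 0.37 for Adora3, -0.43 to 0.45 for P2rx4, -0.27 to 0.24 for P2ry12, -0.044 to 0.74 for P2ry13, -0.088 to 0.53 for P2ry14 and -0.42 to 0.49 for P2ry2. For the difference they were -0.057 to 0.34 for Adora3, -0.46 to 0.051 for P2ry12, -0.47 to 0.32 for P2ry13, -0.35 to 0.27 for P2ry14 and -0.062 to 0.84 for P2ry2.

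With the replicate number as a block, the receptors called were 0, 1, 3, 2 and 0, as without it, and all tested genes called were 170, 179, 2955, 1414 and 54, while Gja1 and Il1a lost their call for the difference of the LPS effects. The deviations of same-numbered samples, without median-ratio scaling, correlated between -0.031 and 0.038. They did not move together over all genes, but this cannot exclude a shared culture or day. Read depth is unknown, so the counting error of receptors below 1 TPM, such as P2ry12, Adora3 and Adora2a in UT cells, could not be given.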

Other observations

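The spread between samples of a group differed widely for the same receptor. P2ry6, picked here after its values were seen, had an SD of 0.0935 TPM around a mean of 44.2 TPM in the 3 cGAS-/- LPS samples and an SD of 29.8 TPM around a mean of 36.3 TPM in the 3 WT LPS samples. P2rx4 had an SD of 1.73 TPM in cGAS-/- LPS and 30.9 TPM in WT LPS samples, and WT LPS replicate 2 gave the highest WT LPS value for P2rx4, P2rx7, P2ry6, P2ry12, P2ry13, P2ry14, Adora2a, Adora2b and Adora3. After median-ratio scaling the SD of P2rx4 in WT LPS samples was 13.1, that of P2ry14 was 0.53 against 1.44 before, and that of P2ry6 was 27.5.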
